A study of Mus musculus with 2 samples.

Results

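The globins are the protein chains of haemoglobin, and 8 genes of red cell biology were followed through a ChIP-seq study of mouse embryo heads. The embryonic globins were Hba-x, Hbb-y and Hbb-bh1, and the adult globins were Hba-a1 and Hbb-bt. The other erythroid genes were the transcription factors Klf1 and Nfe2 and the membrane skeleton gene Epb42. The genes were taken by name from the RefSeq table of mouse build mm10 (GRCm38.p6), where they are 8 of 21779 protein-coding genes. A peak was assigned to a gene when its summit lay in the gene or within 10 kb of either end, a stretch called the window here.

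Chromatin was immunoprecipitated with an anti-GFP antibody (GFP is green fluorescent protein) from snap-frozen E10.5 heads, E10.5 being the embryonic day, in a series about the core histone variant H3.2 in the eye. The data were 2 libraries with identical labels, named library 1 and library 2, each with its own peak list. The labels state no genotype, strain, litter, input or GFP-free control, and they do not name the protein that carried GFP. Nothing states that the libraries came from separate embryos, so no replicate error can be given, and no test between conditions was possible. Heads were profiled whole, so signal from red cells in blood vessels and signal from other head cells cannot be told apart. Peak lists hold no expression levels, and the tissue label was not checked against markers.

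Haemoglobin is built from alpha-like and beta-like chains, and each kind is encoded in a gene cluster of its own. Primitive red cells of the yolk sac carry embryonic chains, though not these alone. Definitive red cells of the fetal liver and bone marrow carry adult ones. At the stage sampled here the circulating cells are mainly primitive. The alpha-like genes are driven by enhancers in introns of the neighbouring gene Nprl3, a housekeeping gene, and the beta-like genes by a locus control region upstream of Hbb-y. Klf1 binds CACC boxes of erythroid promoters and is needed for adult beta-globin, and Nfe2 encodes the erythroid subunit of NF-E2, which binds the locus control region.

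Library 1 held 584724 peaks and library 2 held 348, of which 221 (63.5%) lay on unplaced sequence. The fold enrichment of a peak is the authors' value, which matched the summit pileup plus 1 over the local background plus 1. The pileup is the whole number of overlapping extended reads at the summit, recovered from fold and p for every peak. The median pileup was 15 reads in library 1 and 82.5 in library 2. The lists give no read totals, and all intervals below are 95% intervals that cover counting error only.

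Promoter sequences were found for 6 of the 8 genes, and 4 stretches are printed because the peaks treat them differently. Each shows the 250 bases before a transcription start, 5′ to 3′, from RefSeq on build GRCm38.p6. Capitals mark bases under a listed library 1 peak, so an all lower-case line has none listed. The lines are Hba-x (chr11:32276350-32276599, plus strand), Epb42 (chr2:121036878-121037127, minus strand), Hba-a1 (chr11:32283422-32283671, plus strand) and its near copy Hba-a2 (chr11:32296242-32296491, plus strand).
Hba-x: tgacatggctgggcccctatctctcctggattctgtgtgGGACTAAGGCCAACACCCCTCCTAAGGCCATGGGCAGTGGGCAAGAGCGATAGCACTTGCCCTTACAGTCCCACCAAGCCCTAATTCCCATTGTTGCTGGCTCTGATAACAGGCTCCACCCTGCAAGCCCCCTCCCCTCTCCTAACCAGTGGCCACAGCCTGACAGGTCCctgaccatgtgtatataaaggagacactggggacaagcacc
Epb42: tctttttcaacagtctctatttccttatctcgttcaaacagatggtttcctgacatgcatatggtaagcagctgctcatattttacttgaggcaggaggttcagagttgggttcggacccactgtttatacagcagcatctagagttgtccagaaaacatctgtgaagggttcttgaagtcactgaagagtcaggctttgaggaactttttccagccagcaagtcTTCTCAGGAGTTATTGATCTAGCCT
Hba-a1: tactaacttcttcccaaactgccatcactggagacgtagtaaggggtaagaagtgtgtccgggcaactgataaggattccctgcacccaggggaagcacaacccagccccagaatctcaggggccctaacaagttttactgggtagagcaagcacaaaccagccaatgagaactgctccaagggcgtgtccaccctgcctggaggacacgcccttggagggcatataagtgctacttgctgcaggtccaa
Hba-a2: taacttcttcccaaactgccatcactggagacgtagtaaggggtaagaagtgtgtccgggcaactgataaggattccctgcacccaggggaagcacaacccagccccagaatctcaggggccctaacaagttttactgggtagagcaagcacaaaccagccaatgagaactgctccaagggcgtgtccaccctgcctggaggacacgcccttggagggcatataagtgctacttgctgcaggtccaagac

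The Hba-x promoter was the one among the 6 that lay largely under a peak. A peak of library 1 covered 170 of the 300 bases from 250 before to 50 after the start, and all 170 lay upstream. The covered part of the Hba-x promoter held a CACC box (searched as CCNCNCCC) and a GATAA, the core letters bound by GATA factors, while its TATAA lay outside the peak. Peaks covered 75 of 300 bases at Epb42, 18 at Hbb-bt and 15 at Klf1, mostly or wholly past the start. At Hbb-y and Hba-a1 listed peaks covered 0 bases. Around Hba-a1, however, 2 numbers were missing from the running numbering of the peaks, so the 0 there counts listed peaks only. So 4 of the 6 promoters were touched, against 37.4% of the 32851 promoters in the table, where a touched promoter had a median of 146 covered bases. Those promoters belong to 27025 gene symbols, a different reference set from the 21779 protein-coding genes.

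No motif searched was both in all 4 touched promoters and missing from the other 2. Searched on both strands, GATAA was in all 6 promoters and in 25.4% of all promoters. The letters CCAAT were in 4 of the 6, namely Hbb-y, Hba-a1, Hbb-bt and Klf1, and in 37.4% of all promoters. The CACC box was in Hba-x and Hbb-bt and in 49.5% of all promoters. The letters TATAA were in Hba-x, Hba-a1, Hbb-bt and Epb42 and in 24.9% of all promoters. A match describes letters and not a bound site. The GC content of the 6 promoters was 43.3% to 57.3%, against a median of 52.7% over all promoters.

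All 8 genes had a library 1 peak in their window, as did 95.2% of all protein-coding genes, so presence alone says little about them. The windows held 53 distinct peaks. These had a median fold of 4.04 (binomial interval of the median 3.77 to 4.31) and a range of 2.33 to 6.46, against a median of 3.90 and quartiles of 3.27 and 4.58 for the whole list. Of the 53, 24 (45.3%) had a −log10 q of at least 5, against 41.0% of all library 1 peaks. The median width was 201 bp both for the 53 peaks and for the whole list. No gene of the 8 had a library 2 peak in its window, and the same rule found one at 0.193% of all genes.

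**Figure D1:**
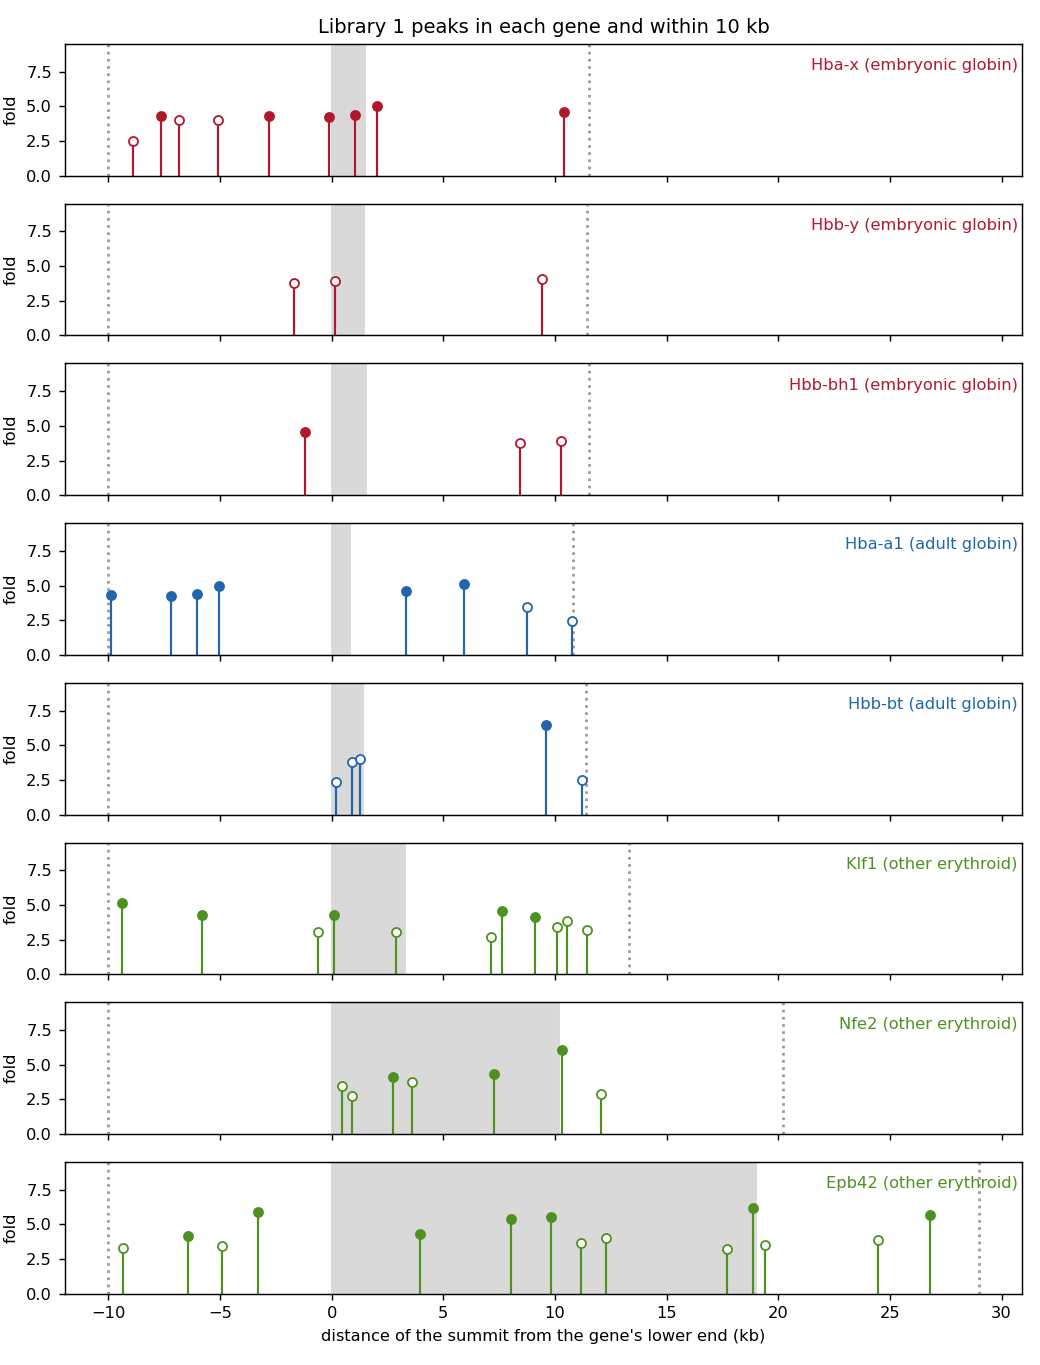
Library 1 peaks of each gene. The x axis is the distance of the summit from the gene's lower end in kb, the y axis the authors' fold enrichment; grey bands are gene bodies, dotted lines the edges of the window, filled points peaks with a −log10 q of at least 5, and colours the 3 classes. Hba-x, Klf1 and Epb42 carry 9, 11 and 14 peaks, whereas Hbb-y and Hbb-bh1 carry 3 each.

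Hba-x encodes zeta-globin, the embryonic alpha-like chain, and lies at chromosome 11, 32276600 to 32278116. Its window held 9 peaks, or 4.18 per 10 kb (1.91 to 7.94), with folds of 2.50 to 5.0. Of all protein-coding genes, 59.2% had a lower density. One peak, with a fold of 4.36 from 18 reads at the summit (interval 10.7 to 28.4), had its summit in the gene. The promoter peak had its summit 129 bp before the start, with a fold of 4.25 from 16 reads at the summit (interval 9.15 to 26.0). The highest fold, 5.0, belonged to a 1014 bp peak with its summit 502 bp past the 3′ end and a pileup of 25 (16.2 to 36.9). Summits thus lay on either side of the Hba-x body, and the 1014 bp peak itself began inside the gene, at 32277807.

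Hbb-y encodes epsilon-y-globin, an embryonic beta-like chain, and lies at chromosome 7, 103851754 to 103853207, on the minus strand. Its window held 3 peaks, or 1.40 per 10 kb (0.288 to 4.09), and 25.5% of genes had a lower density. The peak inside Hbb-y sat 1317 bp past the start, with a fold of 3.90 from 16 reads at the summit (interval 9.15 to 26.0). The other folds were 3.77 and 4.04, and Hbb-y was the gene among the 8 without a peak of −log10 q of at least 5. Over all genes, 88.6% had such a peak in the window.

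Hbb-bh1 encodes beta-h1-globin, the other embryonic beta-like chain, and lies at chromosome 7, 103841638 to 103843162. It had 3 peaks in its window, 1.39 per 10 kb (0.287 to 4.07), and none inside the gene. The nearest summit lay 1168 bp away within the neighbouring globin gene Hbb-bh2, with a fold of 4.58 from 16 reads at the summit (interval 9.15 to 26.0). Its remaining peaks, with folds of 3.77 and 3.90, were both also counted for Hbb-y.

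Hba-a1 encodes an adult alpha-globin and lies at chromosome 11, 32283672 to 32284486. Its window held 8 listed peaks, or 3.84 per 10 kb (1.66 to 7.57), but none of them in the gene. The stretch around the gene also lacked 2 numbers in the running numbering of the peaks. Of the 8, 5 were shared with the window of Hba-x. The nearest summit was 2517 bp from Hba-a1, within the theta-globin gene Hbq1b, with a fold of 4.58. The highest fold was 5.12, at 5098 bp from the gene, with a pileup of 18 (10.7 to 28.4).

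Hbb-bt encodes an adult beta-globin and lies at chromosome 7, 103812524 to 103813923, on the minus strand. It had 5 peaks, 2.34 per 10 kb (0.759 to 5.45), and 3 of them were inside the gene, the most among the globins followed here. Their folds were 4.04 at 129 bp past the start, 3.77 at 466 bp and 2.33 at 1199 bp, with pileups of 14, 13 and 15 reads. The highest fold of all 53 peaks, 6.46, lay 8197 bp upstream of Hbb-bt at chromosome 7, 103821864 to 103822270, with a pileup of 23 (14.6 to 34.5). That peak lay nearer to the adult gene Hbb-bs, whose window it also gave the best fold, 6.46. Of all protein-coding genes, 73.8% had a lower best fold than Hbb-bt, with genes without a peak counted as lower.

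Klf1 lies at chromosome 8, 84901982 to 84905291, and had 11 peaks, or 4.72 per 10 kb (2.36 to 8.44), the highest density of the 8 genes. A peak with a fold of 4.31 from 15 reads at the summit (interval 8.40 to 24.7) had its summit 105 bp past the start. Another, with a fold of 3.08, lay 2891 bp past the start in the same gene. The other peaks mostly belonged to neighbours: 8 of the 11 summits fell in other annotated genes, among them Gcdh, Dnase2a and Mast1. The highest fold in the window, 5.12, was in Gcdh, 9384 bp upstream.

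Nfe2 lies at chromosome 15, 103248212 to 103258403, and had 7 peaks, or 2.32 per 10 kb (0.932 to 4.78). Of these, 5 were inside the gene, with folds of 2.75 to 4.31. The strongest spanned the higher gene end, chromosome 15, 103258340 to 103258678, with a fold of 6.06 from 22 reads at the summit (interval 13.8 to 33.3). The last lay 1852 bp beyond that end with a fold of 2.90, and the remaining 10 kb flank below the gene held none.

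Epb42 encodes protein 4.2, which ties the red cell skeleton to the band 3 anion exchanger, and lies at chromosome 2, 121017891 to 121036877, on the minus strand. It had 14 peaks, or 3.59 per 10 kb (1.96 to 6.02), 7 of them inside the gene. The strongest peak, with a fold of 6.20 from 26 reads at the summit (interval 17.0 to 38.1), had its summit 137 bp past the start and reached 25 bases into the upstream stretch printed above. Within the body of Epb42, peaks with folds of 5.51 and 5.39 lay 9148 and 10946 bp past the start. A further 4 summits lay in the neighbouring gene Ccndbp1, with folds of 3.27 to 5.92.

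Inside gene bodies, 6 of the 8 genes had a peak, against 86.1% of all protein-coding genes, and Hbb-bh1 and Hba-a1 had none listed. The bodies of the 5 globins among the 8 genes are short: the longest of these, Hbb-bh1, spans 1525 bp and the shortest, Hba-a1, 815 bp, against a median gene length of 17.2 kb. At the edge of the window, the farthest counted peak of Hba-a1 lay 9.97 kb away with a fold of 2.42, and the nearest one not counted lay 10.4 kb away with a fold of 3.77. At Hbb-bt these were 9.83 kb with 2.52 and 12.8 kb with 2.96.

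Embryonic and adult globins were not separated by peak density or by fold. Counting a shared peak at each gene, the embryonic globins had 2.33 peaks per 10 kb of window, the adult globins 3.08 and the other erythroid genes 3.46. With each peak counted once per class, the densities were 2.45 (1.30 to 4.19), 3.08 (1.64 to 5.27) and 3.46 (2.37 to 4.88), so all intervals overlapped. The median fold was 4.25 (3.90 to 4.58) over 13 embryonic peaks, 4.25 (2.52 to 5.0) over 13 adult peaks and 3.97 (3.42 to 4.31) over 32 peaks of the other erythroid genes. Peaks with a −log10 q of at least 5 numbered 7, 7 and 15. The order of the classes depended on the flank: with 5 kb the densities were 2.03 at embryonic globins, 1.80 at adult globins and 3.52 at other erythroid genes, and with 1 kb they were 3.81, 4.83 and 4.42. The embryonic and adult sets are not independent, because 5 peaks near Hba-x and Hba-a1 belong to both. The windows of these 2 genes also share the stretch where 2 peak numbers are missing, so both densities count listed peaks only.

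**Figure D2:**
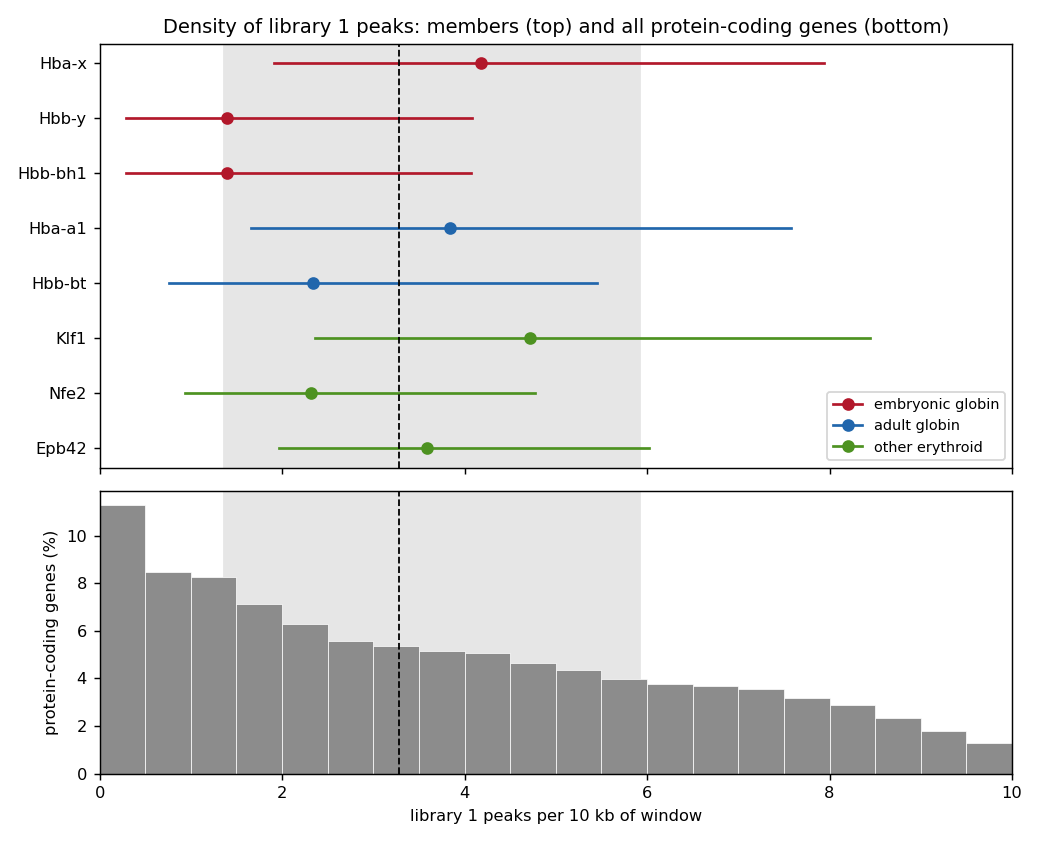
Density of library 1 peaks. Top: peaks per 10 kb of window for each gene (points) with 95% exact Poisson intervals (lines), coloured by class. Bottom: share of all protein-coding genes in bins of 0.5 peaks per 10 kb, with 414 genes beyond the axis. The grey band and dashed line mark the quartiles and the median of all genes, and every interval of the 8 genes crosses the median.

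By cluster, the alpha-like genes had higher densities than the beta-like genes, with overlapping intervals. The alpha-like genes Hba-x and Hba-a1 had 4.18 and 3.84 peaks per 10 kb, and the beta-like genes Hbb-y, Hbb-bh1 and Hbb-bt had 1.40, 1.39 and 2.34. Counting each peak once, the alpha windows held 12 listed peaks, or 4.30 per 10 kb (2.22 to 7.52), and the beta windows 9, or 1.70 (0.777 to 3.23). Peaks of −log10 q of at least 5 numbered 7 of 12 at the alpha genes and 2 of 9 at the beta genes. Over all protein-coding genes the median was 3.29 per 10 kb, with quartiles of 1.37 and 5.92. The order of the 8 genes by density was Klf1, Hba-x, Hba-a1, Epb42, Hbb-bt, Nfe2, Hbb-y and Hbb-bh1, and neighbours in that order had overlapping intervals.

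The surroundings of the clusters differed more than the clusters themselves. From Hba-x to Hbq1a, the alpha cluster held 8 listed summits in 24.3 kb, or 3.30 per 10 kb (1.42 to 6.49). Inside it, 2 peak numbers were missing around Hba-a1 and 2 around Hba-a2. Its density therefore counts listed peaks only, and the interval does not cover the missing numbers. The adjoining 100 kb below it, which include Nprl3, held 74, or 7.40 per 10 kb (5.81 to 9.29), and the 100 kb above it 47, or 4.70 (3.45 to 6.25). From Hbb-bt to Hbb-y, the beta cluster held 11 summits in 40.7 kb, or 2.7 per 10 kb (1.35 to 4.84). The 100 kb below it held 2 summits, or 0.2 per 10 kb (0.0242 to 0.722), and the 100 kb above it 8, or 0.8 (0.345 to 1.58). All 13 protein-coding genes in those beta flanks, 7 below and 6 above, were olfactory receptor genes. The interval of the beta cluster did not overlap that of the stretch below it, but it did overlap that of the stretch above it. These intervals cover counting error in 1 library, and the difference was not tested. For comparison, chromosome 11 averaged 3.36 per 10 kb and chromosome 7 averaged 2.78.

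**Figure D3:**
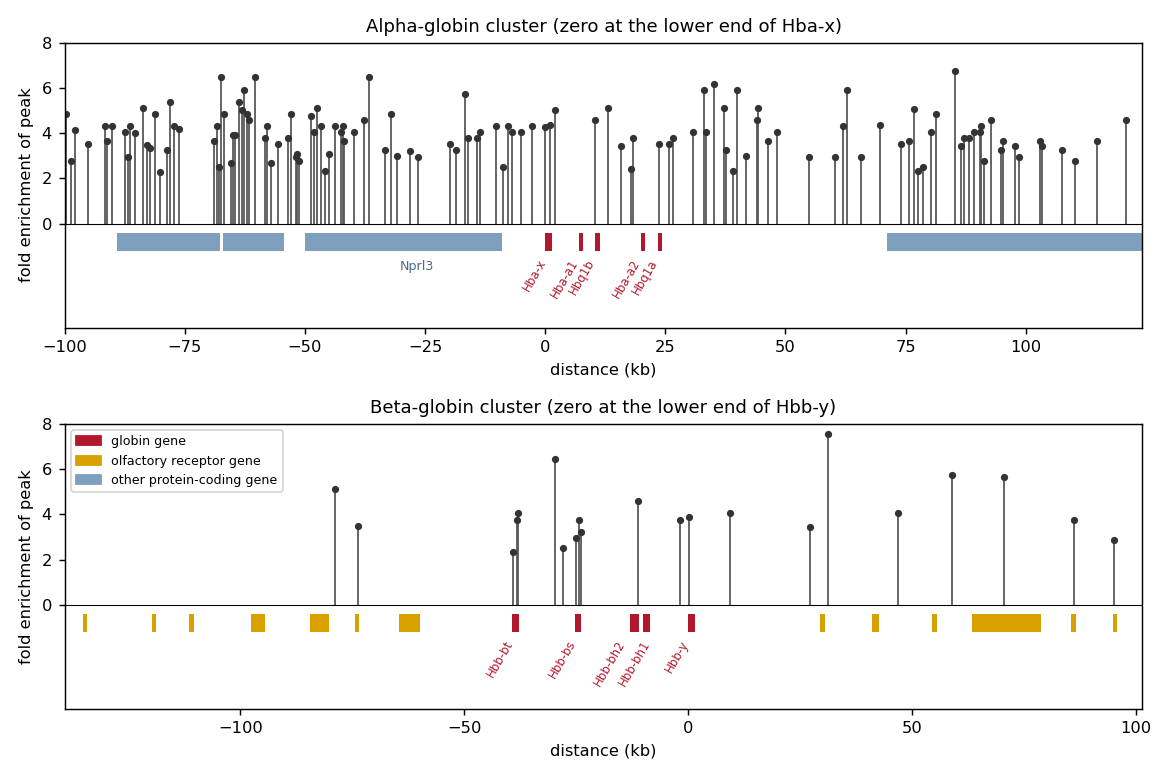
Library 1 peaks across both globin clusters and 100 kb on either side. The x axis is the distance in kb from the lower end of Hba-x (top) or Hbb-y (bottom), the y axis the authors' fold enrichment, and boxes are protein-coding genes. The alpha cluster lies in a stretch with 74 summits below it and 47 above it, the beta cluster among olfactory receptor genes with 2 and 8.

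Within the alpha cluster, both adult alpha genes sat in stretches without a summit. No summit lay in the 8.38 kb around Hba-a1, from Hba-x to Hbq1b, or in the 5.43 kb around Hba-a2. The upstream letters of these genes printed above show how alike they are: over 297 aligned promoter bases, 297 were identical (100%). Each of these stretches also lacked 2 numbers in the running numbering of the peaks. The stretch around Hba-a1 lay in the windows of both Hba-x and Hba-a1. In the whole of library 1, 2806 of 587530 numbers (0.478%) were missing, and none was missing among the consecutive peaks of the other 6 genes. Whether peaks with those numbers lay at Hba-a1 and Hba-a2 was not analysed here, so the absence of a listed peak there is not a measured absence of signal.

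The adult beta genes Hbb-bt and Hbb-bs did have listed peaks, all in their bodies or flanks. With their promoters laid side by side without gaps, 168 of 299 bases were identical (56.2%). An ungapped comparison understates likeness wherever 1 sequence has inserted or lost bases. The likeness of the gene bodies was not measured, and any link between likeness and listed peaks was not tested. Hbb-bs had 3 peaks in its body, the same number as Hbb-bt, with folds of 2.96, 3.77 and 3.23 and pileups of 10, 13 and 11 reads. The theta-globin genes Hbq1b and Hbq1a each had 1 peak in the body, with folds of 4.58 and 3.50.

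On the side of the beta-globin locus control region, summits were sparse. Upstream of Hbb-y the nearest summit lay 7952 bp from the start, with a fold of 4.04 from 14 reads at the summit (interval 7.65 to 23.5). The next was 17.8 kb farther on, with a fold of 3.44. Another 4.13 kb on, past the olfactory receptor gene Olfr66, lay a summit with a fold of 7.54, so sparse summits were not all low in fold. Between Hbb-bs and Hbb-bh2 lay a stretch of 12.7 kb without a summit. In the alpha locus, the gene body of Nprl3 held 19 summits, or 5.32 per 10 kb over 35.7 kb, and its window 37, or 6.64 per 10 kb (4.67 to 9.15), with a best fold of 6.46. Enhancer positions within these regions were not used here.

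Other globin and erythroid genes, taken by role, had peaks about as often as genes in general. Of 58 listed genes 57 were found in the reference table, and Ahsp was not analysed here. A library 1 peak lay in the window of 56 of the 57, against the 95.2% of all genes given above. The median density of the list was 4.81 per 10 kb, against 3.29 over all genes, and 38 of the 57 exceeded the median of all genes. The median best fold was 6.13, against 5.79 over all genes with a peak. None of the 57 had a library 2 peak.

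The regulators of erythroid transcription had the highest median density of the listed roles. Their median was 6.94 per 10 kb, with a range of 0.802 to 11.7, and 13 of 16 exceeded the median of all genes. The lowest was Gata1 on the X chromosome, with 3 peaks, or 0.802 (0.165 to 2.34). X chromosome genes had a median of 0.238 and an upper quartile of 0.480, so Gata1 was above both. Zfpm1, the GATA1 cofactor FOG1, had 89 peaks, or 11.7 per 10 kb (9.40 to 14.4), more than 99.8% of genes. Zbtb7a, a repressor of fetal globin in human cells, had 11.1 (7.95 to 15.03), and Cbfa2t3, a corepressor partner of TAL1, 10.51 (8.54 to 12.8). Haem synthesis genes had a median of 5.48, with 6 of 8 above that of all genes.

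Membrane and skeleton genes ran from none to many peaks, around a median of 4.67 per 10 kb, and 11 of 15 exceeded the median of all genes. Kel, which encodes the Kell blood group protein, had no peak in 38.0 kb, an interval of 0 to 0.971 per 10 kb. Rhag, the Rh-associated glycoprotein, had 2 peaks, or 0.377 (0.0457 to 1.36). Alas2, the first enzyme of haem synthesis in red cells, had 1 peak, or 0.231 (0.00586 to 1.29). Alas2 lies on the X chromosome, where the median over 963 genes was 0.238. Genes for receptors, iron handling and maturation had a median of 2.47, with 5 of 13 above the median of all genes. In the beta cluster Hbb-bh2 had 2 peaks in its window, or 0.912 per 10 kb (0.110 to 3.29), and Hbb-bs 5, or 2.34 (0.758 to 5.45). In the alpha cluster Hbq1a had 9, or 4.33 (1.98 to 8.21), Hba-a2 8, or 3.84 (1.66 to 7.57), and Hbq1b 7, or 3.34 (1.34 to 6.88). These alpha-cluster counts are of listed peaks only, because the windows reach into stretches where peak numbers are missing.

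**Figure D4:**
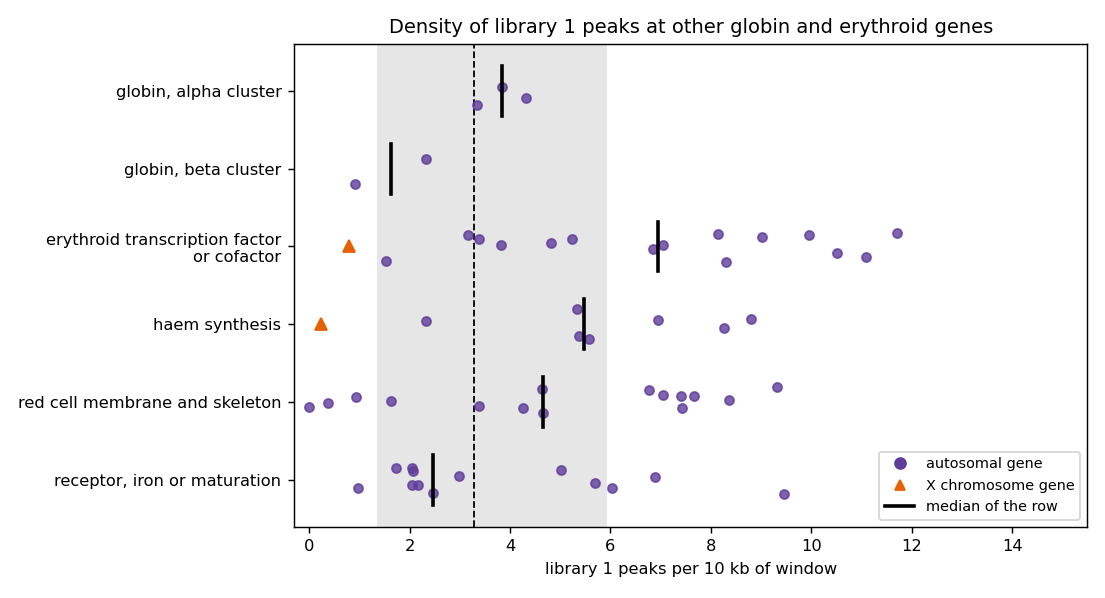
Library 1 peaks per 10 kb of window at 57 other globin and erythroid genes, by role. Each point is a gene, triangles are X chromosome genes, black bars are row medians, and the grey band and dashed line mark the quartiles and the median of all protein-coding genes. Transcription factors and cofactors have the highest row median, 6.94, and the beta-cluster globins the lowest, 1.62.

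Library 2 came nearest at Nfe2. Its peak at chromosome 15, 103276118 to 103276174, lay 17.7 kb from Nfe2 within the gene Copz1, with a fold of 9.78. For Hbb-y, Hbb-bh1 and Hbb-bt the nearest library 2 peak was the same one, in Trim30a, at 575, 585 and 614 kb, with a fold of 6.49. At Hba-a1, Hba-x, Epb42 and Klf1 it lay 2397 to 11582 kb away. With a flank of 25 kb, Nfe2 was the single gene of the 8 with a library 2 peak, against 0.335% of all genes.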

How the data were processed

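The deposited files are 1 narrowPeak list per library. Per the submitters' processing notes, bcl2fastq 2.17, Trimmomatic 0.33, Bowtie 1.1.2 and MACS2 2.1.0 were used, with builds hg38 and mm10 named and no settings. Positions matched mm10 and are counted from 1. The deposited score is the −log10 q multiplied by 10 and rounded down. The authors' fold is the ratio of summit pileup plus 1 to local background plus 1, as the deposited values show, and the deposited −log10 p-value and q-value are the caller's. How reads matching several places were treated is not given in the sources used here.

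Pileups were solved from fold and p (tolerance 0.002) with Python 3.11.15, scipy 1.17.1 and pandas 2.3.3. The steps were tested on simulated data. Gene positions came from RefSeq GRCm38.p6. From its protein-coding genes, 108 entries with starts under 3 Mb, where the assembly has no sequence, were left out. The table has no exons. Intervals are exact Poisson or binomial. Named genes were the 8, all other cluster globins, Nprl3 and, by density, the 3 highest and 3 lowest of the erythroid list. Gata1 was added as the lowest of the transcription regulators. The genes and lists were chosen with earlier results of these data known. No test was made.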

Additional observations from a re-analysis of the deposited data

How the results depend on the processing

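Of 50 recomputed values, 42 kept their value within its interval, or within 1.5 times for counts, and 8 did not. The 53 distinct peaks became 33 with a flank of 5 kb, 24 with 1 kb and 90 with 25 kb, since the flank sets the searched length, and 24 with a −log10 q of at least 5. That stricter threshold also lowered the density to 1.09 per 10 kb at embryonic globins and to 1.62 at other erythroid genes, and raised the median fold of other erythroid genes to 4.58. Genes with a peak numbered 8 in all settings except 6 with a flank of 1 kb, without Hbb-bh1 and Hba-a1, and 7 at the stricter threshold, without Hbb-y. With a flank of 5 kb the embryonic density was 2.03 and the adult 1.80, the opposite order to the 2.33 and 3.08 of the 10 kb flank. With 1 kb the adult density, 4.83, was above the 4.42 of other erythroid genes. Leaving out 1 library at a time gave 0 to 8 genes with a peak in either library, with 0 when library 1 was left out. Pileups of 8 to 26 reads limit what single peaks can show.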

Other observations

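Some fold values repeated across the genes, since many peaks have whole pileups over one background. Of the 53 peaks, 26 had the most frequent background of library 1, 2.71 extended reads. That is a smaller share than the 66.2% of all its peaks. On that background a pileup of 13 reads gave a fold of 3.77, 14 gave 4.04, 15 gave 4.31 and 16 gave 4.58. On that background, a difference between such neighbouring folds is a difference of 1 read.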
